A study of Mus musculus with 12 samples.

Results

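The genes described here were 39 components of the autophagy machinery, taken by name from a list of the pathway. The list was chosen with earlier results of these data known. They comprised 5 genes of the ULK kinase complex, 6 of the class III phosphatidylinositol 3-kinase (PI3K) complexes, 5 of the membrane and lipid supply, 11 of the conjugation systems, 5 of the LC3 and GABARAP family, 5 cargo receptors and adaptors, and 2 transcription factors. All 39 were found among the 23420 genes of the count table, 38 under their own name and Atg101 under its older symbol 9430023L20Rik. The row named Atg4a is a pseudogene model, as described with the conjugation genes, so that the counts over 39 genes include 1 row that does not measure the protein-coding gene. All 39 also passed the filter on low counts, which left 9742 genes for testing.

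RNA was measured in cells sorted as CD11b+Ly6G−Ly6Chi from the bone marrow of male C57BL/6JNIA mice. The study calls these cells monocytic myeloid-derived suppressor cells (M-MDSCs). Genes listed for neutrophils had a far higher summed level in these libraries than genes listed for classical monocytes, as described further on. There were 6 aged mice of 24 months and 6 young mice of 6 months, with 1 library for each mouse and no treatment or allele that differed between the ages. The question was how the transcriptome of these cells differs with age. Fragments counted on genes totalled 8737941 to 16300374 in aged and 4613239 to 9079237 in young mice, and the autophagy genes together received 28212 to 52656 and 16838 to 33101 of them. Each library is the RNA of a bulk population, in which fewer cells of a type and less RNA per cell cannot be told apart.

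Autophagy delivers cytoplasmic material to lysosomes inside a double membrane that grows around its cargo. The ULK kinase complex starts the process when nutrients are short, a lipid kinase complex built around Beclin 1 marks the site, and a pair of ubiquitin-like conjugation systems attach LC3 and GABARAP proteins to the growing membrane, where receptors such as p62 tether cargo. In myeloid cells the pathway is known for its part in the differentiation of monocytes, in inflammatory responses and in the ruffled border of osteoclasts.

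In M-MDSCs of aged mice, 4 of the 5 LC3 and GABARAP genes were called higher, against 22.4% of all genes, and so was the receptor p62 (Sqstm1). Lower were 3 of the 5 genes of the ULK complex and 4 of the 5 receptors and adaptors, against 23% of all genes. By edgeR's quasi-likelihood test, 21 of the 39 genes (53.8%) were called at a Benjamini-Hochberg adjusted p of 0.05 (adjusted over the 9742 genes), against 45.4% of all genes tested. DESeq2 called the same 21 of the 39 genes, against 37.2% of the genes it tested. Of these, 7 were higher in aged mice (17.9%, against 22.4% of all genes) and 14 were lower (35.9%, against 23% of all genes). The median log2 fold change of aged over young was −0.06 over the 39 genes and 0.01 over all genes tested. The values of the 6 aged and the 6 young mice did not overlap for 11 genes (28.2%, against 21.8% of all genes), 2 of them higher (9.68% of all genes) and 9 lower (12.1% of all genes). The share called higher was thus below that of all genes, and the share called lower was above it. With an offset for gene length, described further on, the share called higher was 7.69% against 17.8% of all genes, and the share called lower was 17.9% against 15.6%. With it, 2 of the 5 LC3 and GABARAP genes were called higher. Called lower were 0 of the 5 genes of the ULK complex and 2 of the 5 receptors and adaptors.

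**Figure D1:**
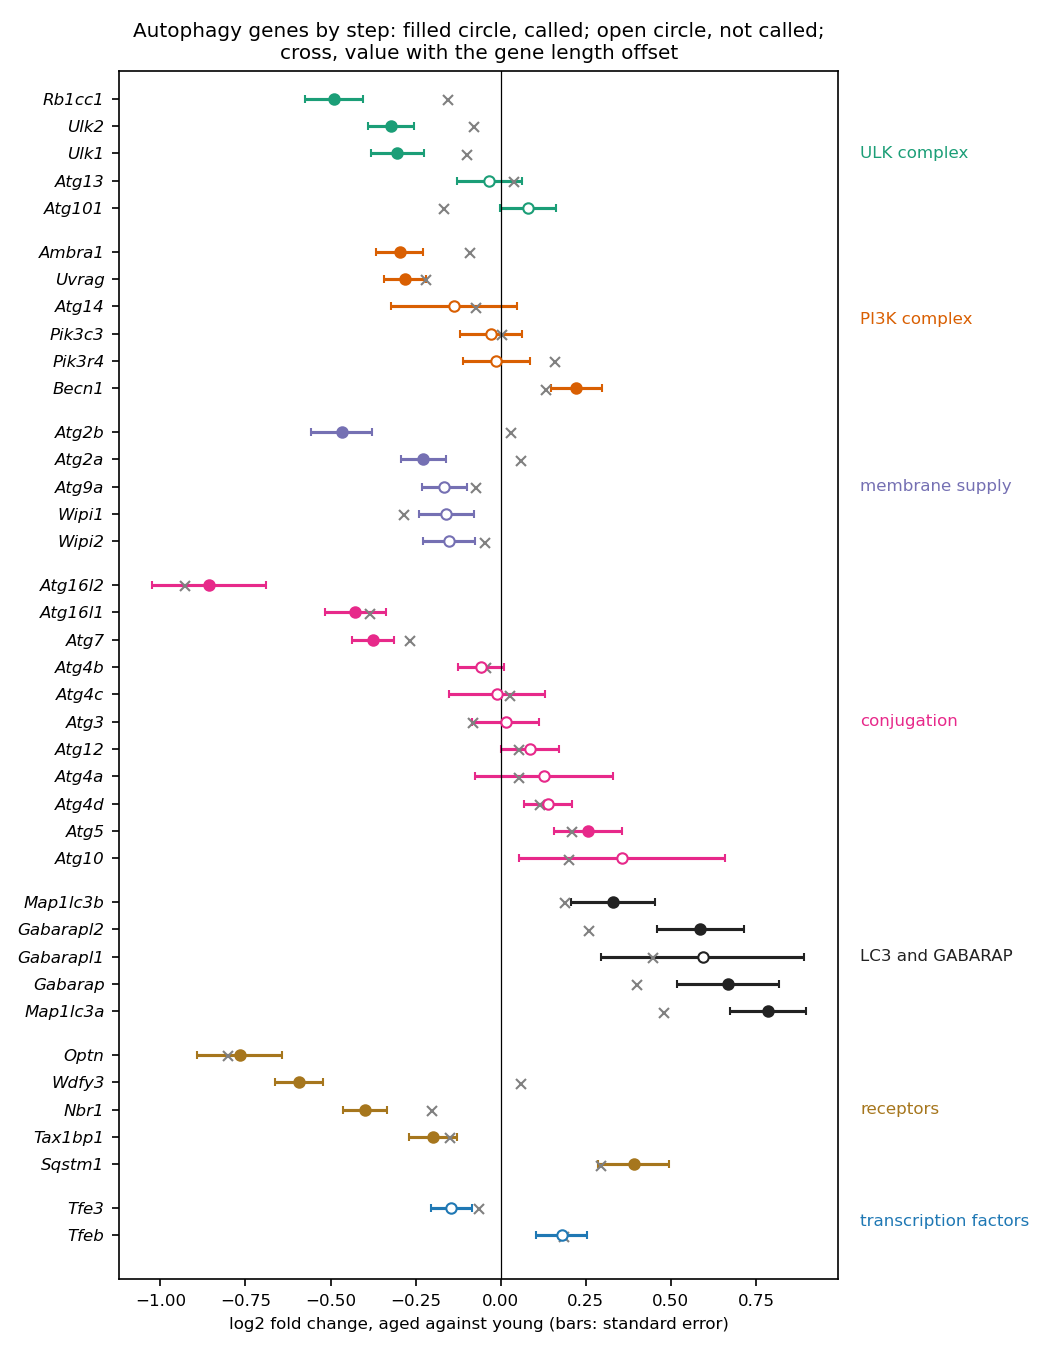
Log2 fold change of aged over young (horizontal axis, edgeR, bars are the standard error) for each of the 39 autophagy genes, grouped by step of the pathway, with 6 mice of each age, filled where called and open where not, and a cross for the value with an offset for gene length. The LC3 and GABARAP genes lie to the right of 0, from 0.33 to 0.78, and 4 of the 5 receptors and adaptors lie to the left.

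Levels of a gene are given as CPM, its counts relative to the scaled total of the library, and levels of different genes are compared as RPKM, the same value per kilobase of exons. Gabarap was the most abundant of the 39 genes per kilobase in both ages, with 498 ± 57.3 RPKM (SD, n = 6) in aged and 313 ± 79.3 in young mice. Sqstm1 followed in young mice with 74.1 ± 12.9 RPKM, then Map1lc3b with 72.3 ± 11.4, Tax1bp1 with 67.6 ± 1.88 and Atg7 with 66.3 ± 3.85, which lie within the spread of each other. The lowest was Atg10, an E2-like enzyme of the conjugation system, with 0.741 ± 0.305 RPKM in young mice and as few as 5 counts in a library.

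LC3 and GABARAP proteins are small ubiquitin-like proteins that are joined to phosphatidylethanolamine on the autophagosome membrane and bind receptors there. Gabarap (mm10, chr11:69991370-69994949, 4 exons) lay between 476 and 656 CPM in aged mice, with a median of 547.7, and between 222 and 427 in young mice, with a median of 392.6. No young mouse reached the lowest aged mouse, and the lowest levels, 222 and 255 CPM, were those of young mice 5 and 6. The log2 fold change was 0.67 (SE 0.15, adjusted p = 0.00245, edgeR), a fold of 1.59.

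Map1lc3a (chr2:155276364-155278073, 4 exons), which encodes LC3A, was the gene of the 39 with the largest rise. Its level was 27.6 to 33 CPM in aged mice (median 29.2) and 12.8 to 21.3 CPM in young mice (median 17). The ages were separated by a gap, and its log2 fold change was 0.78 (SE 0.112, adjusted p = 1.23e-04, edgeR), a fold of 1.72. Its call held whichever of the 12 mice was left out.

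Map1lc3b (chr8:121590468-121598047, 4 exons) encodes LC3B, the form most used as a marker of autophagosomes. Levels were 120 to 183 CPM in aged mice (median 159.5) and 94.4 to 148 CPM in young mice (median 123.8), so that the ages overlapped. The log2 fold change of 0.33 (SE 0.122) passed the threshold with an adjusted p of 0.0374 (edgeR), but it did so in only 5 of the 12 fits that left out a mouse. Gabarapl2, also known as GATE-16, rose by 0.59 (SE 0.128, adjusted p = 0.00215, edgeR), and its ages overlapped through young mouse 9, at 45.4 CPM. With an offset for gene length neither gene was called, Map1lc3b at 0.19 (adjusted p = 0.229, edgeR) and Gabarapl2 at 0.26 (adjusted p = 0.0582, edgeR). The remaining member, Gabarapl1, was not called, with a log2 fold change of 0.59 (SE 0.298, adjusted p = 0.115, edgeR) and a highest value of 11.5 CPM in aged mouse 1 against at most 6.88 in the other aged mice.

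Within the family, the order of the genes per length was the same in both ages. Gabarap supplied 74.3% ± 1.08 (SD, n = 6) of the family's summed level per length in aged and 71.1% ± 3.13 in young mice. Map1lc3b supplied 13.5% ± 1.18 and 16.8% ± 1.82, Gabarapl2 7.43% ± 0.195 and 7.69% ± 1.18, and Map1lc3a 4.29% ± 0.59 and 3.85% ± 0.511. Gabarapl1 supplied 0.497% ± 0.296 and 0.511% ± 0.161. The share of Map1lc3b was thus lower in aged mice while its level was higher, and these shares were not tested on their own.

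**Figure D2:**
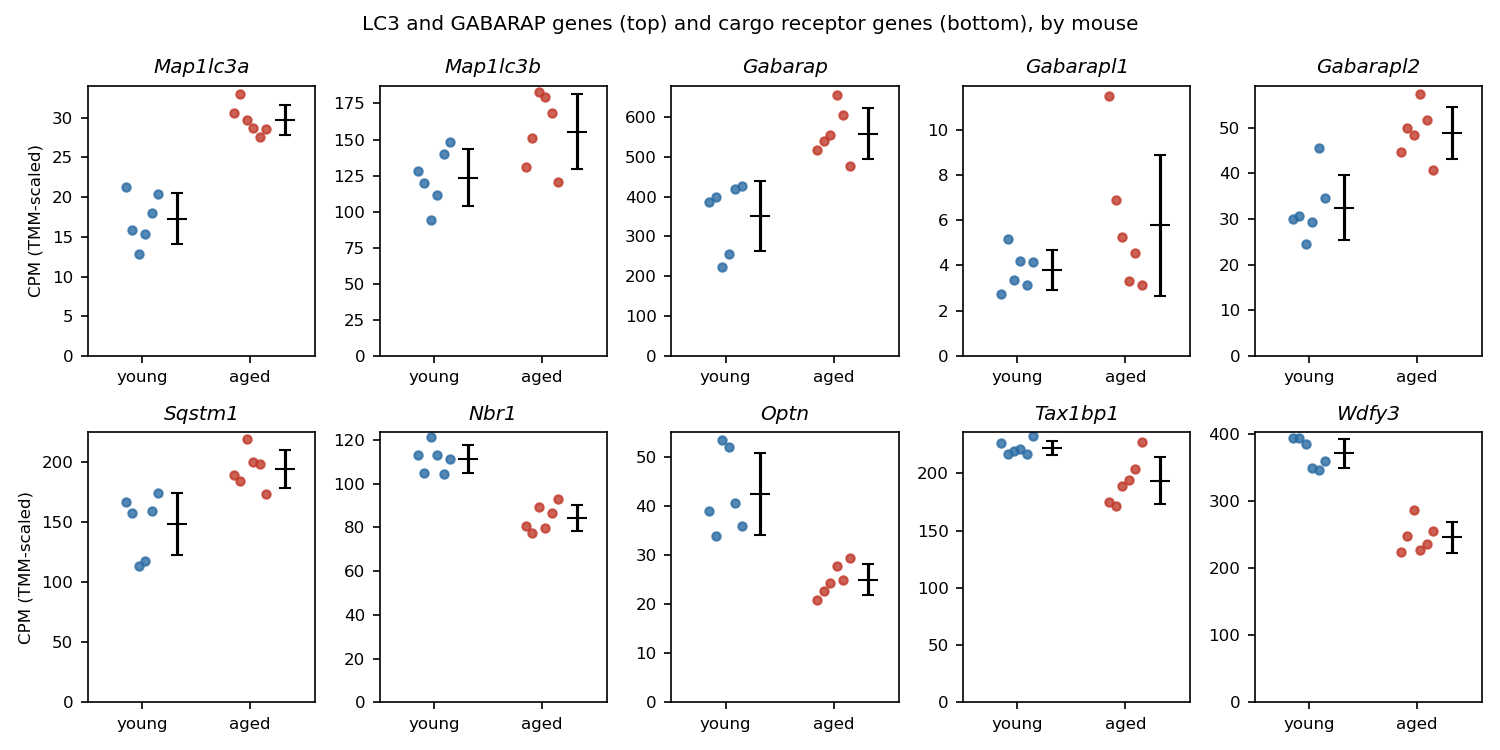
Level in CPM (vertical axes) of LC3 and GABARAP genes and of cargo receptors in each of the 6 young and 6 aged mice, one point per mouse with the mean and SD of each age. Map1lc3a and Gabarap have no overlap between the ages, with aged mice above, and Optn and Nbr1 have none, with aged mice below.

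Cargo receptors bind LC3 or GABARAP and the ubiquitin on cargo. All 5 of these genes were called (against 45.4% of all genes), but not in 1 direction, and 3 of the 5 calls held with an offset for gene length. Sqstm1 (chr11:50200152-50210790, 8 exons), which encodes p62, was the only one of the 5 that was higher in aged mice. It lay between 173 and 219 CPM in aged mice (median 193.6) and between 114 and 174 CPM in young mice (median 158.5), and the ages overlapped only where the highest young mouse, at 174.1, exceeded the lowest aged mouse, at 173.0. The log2 fold change was 0.39 (SE 0.105, adjusted p = 0.00763, edgeR).

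Nbr1 (chr11:101552107-101581951, 25 exons) encodes a receptor of similar architecture to p62, with a PB1 domain and a ubiquitin-binding domain, and it moved the other way. Aged mice had 77.6 to 92.9 CPM (median 83.6) and young mice 104 to 121 CPM (median 112.1), with no overlap. Its log2 fold change was −0.40 (SE 0.0636, adjusted p = 2.64e-04, edgeR). The log2 ratio of Sqstm1 to Nbr1 within a mouse was 0.896 to 1.33 in aged and −0.0906 to 0.644 in young mice, a difference of 0.80 with no overlap (exact two-sided permutation test over 12 mice, p = 0.00216, the smallest this design allows, adjusted p = 0.0114 over 21 pairs). Counts of 2 genes in the same library share its scaling, so this ratio is not affected by how libraries were scaled. It does depend on an offset for gene length, with which the difference was 0.51 and still called (exact permutation test, adjusted p = 0.0227).

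Optn (chr2:5020642-5063938, 15 exons) encodes optineurin, a receptor for damaged mitochondria and bacteria. Its level was 20.9 to 29.5 CPM in aged mice (median 24.6) and 33.9 to 53.4 CPM in young mice (median 39.8). Every aged mouse was below every young mouse, and the log2 fold change was −0.77 (SE 0.125, adjusted p = 3.05e-04, edgeR), a fold of 0.588. Young mice 5 and 6 were the highest, at 53.4 and 52.1 CPM. Tax1bp1, a receptor for ubiquitinated aggregates, fell by less, with a log2 fold change of −0.20 (SE 0.0694, adjusted p = 0.0292, edgeR), and was called in 6 of the 12 fits that left out a mouse. In the same counts, the log2 ratio of Optn to Tax1bp1 was 0.55 lower in aged mice (−2.95 against −2.41, exact permutation test, adjusted p = 0.0114), with no overlap.

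Wdfy3 (chr5:101832953-102069921, 67 exons) encodes ALFY, a very large adaptor that links p62-positive aggregates to the conjugation machinery. It had the smallest adjusted p of the 39 genes. Levels were 225 to 287 CPM in aged mice (median 242.5) and 346 to 394 CPM in young mice (median 373.1), with no overlap, and the log2 fold change was −0.59 (SE 0.0705, adjusted p = 3.29e-05, edgeR). Wdfy3 was also the longest of the 39 genes, with 14277 bases over exons, and its call did not hold once gene length was taken into account, as described further on.

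In the ULK complex, which phosphorylates the downstream machinery, 3 of 5 genes were lower (against 23% of all genes) and 0 were higher by edgeR, also at an unadjusted p of 0.05 and with DESeq2. None of these 3 calls held with an offset for gene length. Rb1cc1 (chr1:6214662-6276104, 24 exons), which encodes the scaffold FIP200, ranged from 92.3 to 129 CPM in aged mice (median 114.2) and from 141 to 177 CPM in young mice (median 161), without overlap. The log2 fold change was −0.49 (SE 0.0858, adjusted p = 5.15e-04, edgeR).

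The kinase genes themselves fell by similar amounts. Ulk1 (chr5:110784489-110810081, 28 exons) was at 78.5 to 106.3 CPM in aged mice (median 92.3) and 105.9 to 123 CPM in young mice (median 116.6), touching at the border, with a log2 fold change of −0.30 (SE 0.0775, adjusted p = 0.00549, edgeR). Ulk2 (chr11:61775598-61855092, 27 exons) was at 43.7 to 52 CPM in aged mice (median 48.5) and 53.7 to 64.5 CPM in young mice (median 61.7), without overlap, with a log2 fold change of −0.32 (SE 0.0674, adjusted p = 0.0016, edgeR). Their ratio did not move detectably (difference in log2 ratio 0.01, exact permutation test, p = 0.894). Atg13 and Atg101, the subunits that bridge the kinase and FIP200, were not called, with log2 fold changes of −0.03 and 0.08, and the log2 ratio of Rb1cc1 to Atg13 was 0.47 lower in aged mice (1.80 against 2.27, exact permutation test, adjusted p = 0.0227). This ratio lost its call with the length offset (−0.21, adjusted p = 0.212) and without young mice 5 and 6 (−0.33, adjusted p = 0.1).

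The class III PI3K complexes make the lipid PI3P on the forming membrane. Becn1 (chr11:101288267-101302267, 12 exons), the Beclin 1 subunit, was at 90.4 to 116 CPM in aged mice (median 98.1) and 82.1 to 91 CPM in young mice (median 86.4), and the highest young mouse, at 91.0, lay above the lowest aged mice. The log2 fold change was 0.22 (SE 0.0754, adjusted p = 0.0253, edgeR). Among the 12 fits that left out a mouse, the call was lost in those without aged mouse 4, 5 or 6 or young mouse 1.

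Uvrag (chr7:98886743-99141144, 15 exons), the subunit of the complex that acts at endosomes and late autophagosomes, was lower. Aged mice had 50.5 to 58.9 CPM (median 56.1) and young mice 62.5 to 72.1 CPM (median 68), without overlap, and the log2 fold change was −0.28 (SE 0.061, adjusted p = 0.00201, edgeR). Ambra1, a regulator of Beclin 1, also fell, by 0.30 (SE 0.0682, adjusted p = 0.00292, edgeR). With an offset for gene length Uvrag stayed called (−0.22, adjusted p = 0.0156, edgeR). Ambra1 (−0.09, adjusted p = 0.398) and Becn1 (0.13, adjusted p = 0.219, edgeR) did not. The catalytic subunit Pik3c3, its partner kinase Pik3r4 and the autophagy-specific subunit Atg14 were not called, with log2 fold changes of −0.03, −0.01 and −0.14.

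Among genes that bring lipid and membrane, the lipid transfer proteins were lower, but not once gene length was taken into account, where both had values just above 0 and no call. Atg2b fell by 0.47 (SE 0.0904, adjusted p = 9.63e-04, edgeR) and Atg2a by 0.23 (SE 0.0666, adjusted p = 0.0121, edgeR). Atg9a, the scramblase that travels in vesicles, and the PI3P-binding proteins Wipi1 and Wipi2 were not called, with log2 fold changes of −0.17, −0.16 and −0.15 and adjusted p-values of 0.0525, 0.118 and 0.12 (edgeR).

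The conjugation systems attach ATG12 to ATG5 and LC3 to lipid. Atg7 (chr6:114643097-114860614, 21 exons), the E1-like enzyme at the head of both systems, lay between 194 and 229 CPM in aged mice (median 203.6) and between 240.0 and 285 CPM in young mice (median 268.4), without overlap. The log2 fold change was −0.38 (SE 0.0619, adjusted p = 3.20e-04, edgeR). Atg3, the E2-like enzyme that takes LC3 from it, was not called and lay at 0.01 on the log2 scale (adjusted p = 0.916, edgeR). The log2 ratio of Atg7 to Atg3 was 0.507 to 0.82 in aged and 0.953 to 1.25 in young mice, a difference of −0.39 without overlap (exact permutation test, adjusted p = 0.0114). With the length offset it was −0.18 and no longer called (adjusted p = 0.0636).

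ATG16L proteins hold the ATG12 and ATG5 conjugate at the membrane. Atg16l2 (chr7:101289616-101302088, 18 exons) had the largest fall of the 39 genes. It was at 26.1 to 34 CPM in aged mice (median 30.2) and 39.7 to 79.3 CPM in young mice (median 45.5), without overlap, and young mice 5 and 6 stood far above the rest of their group at 74.8 and 79.3 CPM. Its log2 fold change was −0.86 (SE 0.168, adjusted p = 0.00107, edgeR), and −0.53 (adjusted p = 0.0158, edgeR) when those 2 mice were left out.

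Atg16l1 (chr1:87756011-87792428, 19 exons), the paralog required for canonical autophagy, was at 29.7 to 34.3 CPM in aged mice (median 32.4) and 36.6 to 53.1 CPM in young mice (median 41.6), again without overlap. Its log2 fold change was −0.43 (SE 0.0907, adjusted p = 0.00176, edgeR). The log2 ratio of Atg16l1 to Atg16l2 was 0.38 higher in aged mice (exact permutation test, adjusted p = 0.0354), but the call was lost without young mice 5 and 6 (0.22, adjusted p = 0.17). It was also lost in 9 of the 12 tests that left out 1 mouse, those without aged mouse 1, 4, 5, 6 or 7 or young mouse 5, 6, 9 or 10, with adjusted p-values of 0.05 to 0.0909.

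Atg5 was the only conjugation gene of the 11 that was called higher, by 0.26 on the log2 scale (SE 0.0998, adjusted p = 0.0481, edgeR), and it was called in 5 of the 12 fits that left out a mouse. Its partner Atg12 was not called (log2 fold change 0.08), nor were Atg10 (0.36, SE 0.302) and the proteases that trim LC3, Atg4b (−0.06), Atg4c (−0.01) and Atg4d (0.14). The log2 ratio of Atg4d to Atg4b was 0.20 higher in aged mice and did not overlap between the ages (0.154 to 0.335 against −0.217 to 0.136, exact permutation test, adjusted p = 0.0114). This call was lost when every library was thinned to the depth of the shallowest (0.20, adjusted p = 0.168) and with the length offset (0.16, adjusted p = 0.0844). The row named Atg4a was also not called, with a log2 fold change of 0.13, but its gene model is a single exon on chromosome 3 (chr3:103643953-103646068) at the coordinates of the pseudogene Atg4a-ps of RefSeq GRCm38.p6, where the protein-coding Atg4a lies on chromosome X. It therefore says nothing of the protein-coding gene. The models of the other 38 genes overlap the RefSeq gene of their symbol.

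**Figure D3:**
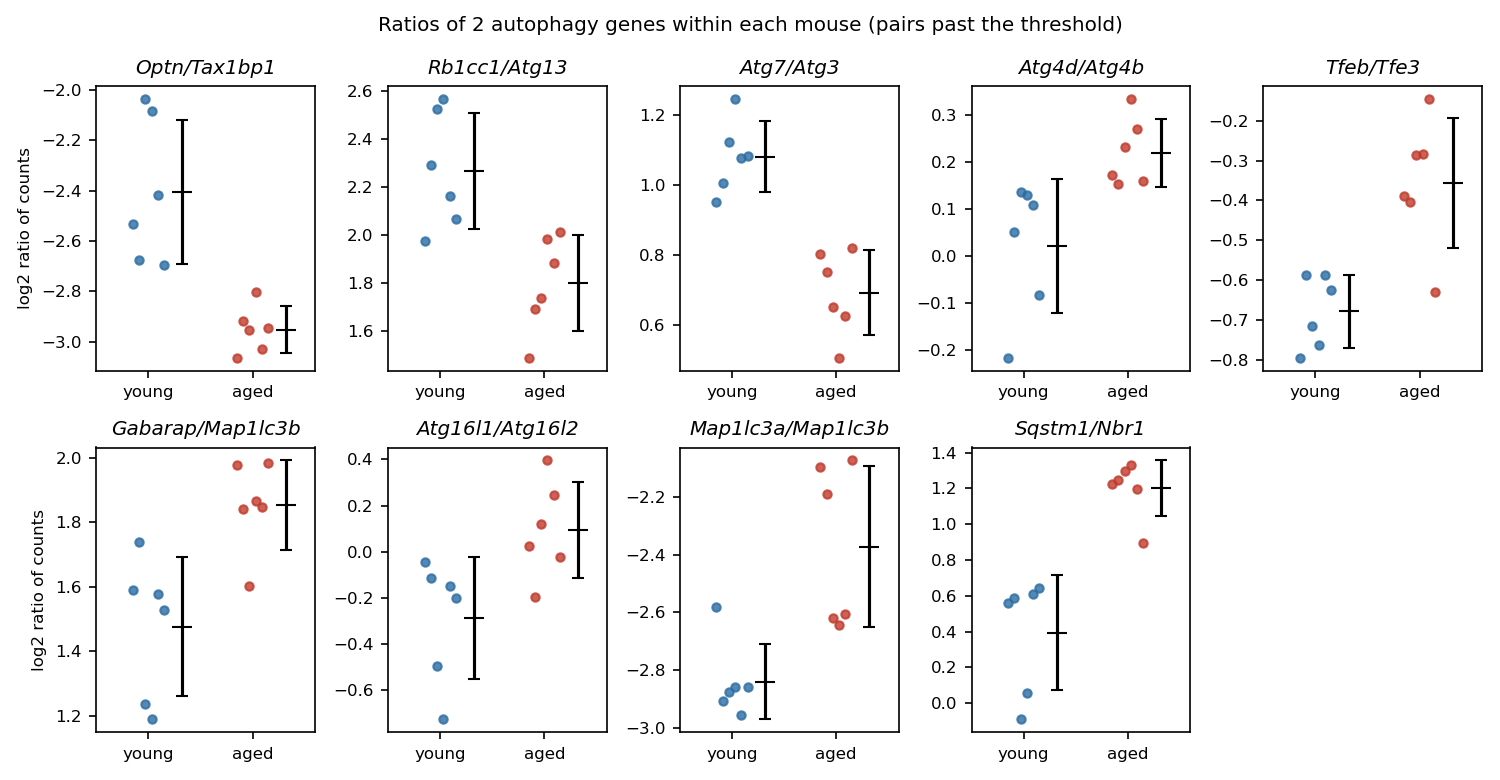
Log2 ratio of the counts of 2 autophagy genes within each mouse (vertical axis), one point per mouse for 6 young and 6 aged mice, for the 9 pairs of paralogs or partners whose ratio differed between the ages, with the mean and SD of each age beside the points. Sqstm1 to Nbr1 and Atg4d to Atg4b lie higher in every aged mouse than in any young mouse, and Atg7 to Atg3 and Optn to Tax1bp1 lie lower.

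Of 21 ratios of paralogs or partners compared, 9 differed between the ages after adjustment over the 21, and 4 of the 9 did not overlap. Beside those given above, Map1lc3a to Map1lc3b was 0.47 higher in aged mice (adjusted p = 0.0227), Gabarap to Map1lc3b 0.38 higher (adjusted p = 0.0182) and Tfeb to Tfe3 0.32 higher (adjusted p = 0.0227), all by the exact permutation test. The call of Map1lc3a to Map1lc3b was lost with an offset for gene length (0.30, adjusted p = 0.176), without young mice 5 and 6 together (0.45, adjusted p = 0.1) and without young mouse 5, 6, 9 or 10 alone (adjusted p = 0.05 to 0.0568). That of Gabarap to Map1lc3b was lost with the offset (0.24, adjusted p = 0.0844) and without young mice 5 and 6 (0.24, adjusted p = 0.1), and that of Tfeb to Tfe3 without those 2 mice (0.29, adjusted p = 0.1). Without those 2 mice fewer rearrangements of the mice exist, and the smallest p of the permutation test is larger. A ratio call lost there does not by itself show that the difference rests on them. For the other 12 pairs the test missed the threshold, which does not show that they were alike. All 21 pairs were chosen with earlier results of these data known, and their ratios use the same counts as the tests of single genes. The p-values of the ratios are therefore not independent support for the calls of single genes.

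Tfeb and Tfe3 encode bHLH factors that switch on lysosomal and autophagy genes when they enter the nucleus. Neither was called by edgeR, although both had an unadjusted p under 0.05, and DESeq2 called 0 of the 2. Tfeb had a log2 fold change of 0.18 (SE 0.0752, adjusted p = 0.0634, edgeR) and Tfe3 one of −0.14 (SE 0.0611, adjusted p = 0.0646, edgeR). The further factors Mitf, Tfec, Foxo1, Foxo3 and Zkscan3 were not called by edgeR or DESeq2, and 0 of these 5 had an unadjusted p under 0.05.

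TFEB, TFE3 and their bHLH relatives bind the palindrome CACGTG, so the promoters of the autophagy genes were searched for it in the window from 250 bases before to 50 bases after the start in RefSeq GRCm38.p6 (the motif reads the same on both strands). It was found in 4 of the 32 genes that had a promoter in the table (12.5%), against 8.09% of all genes with a promoter. These were Atg14, Atg3, Atg5 and Atg7, of which Atg5 was called higher, Atg7 lower and the others neither. The longer form TCACGTGA, which contains it, was found only in Atg3, 1 of the 32 genes (3.12%, against 1.12% of all genes with a promoter). None of the promoters of Map1lc3b, Gabarap, Gabarapl2 and Sqstm1 held CACGTG in this window. Map1lc3a and Becn1, also called higher, had no promoter to search, nor did Rb1cc1, Wdfy3, Atg16l1, Atg12 and Pik3c3. The promoters searched for Atg4a were those of the protein-coding gene on chromosome X, not of the counted row. A match is a description of letters and not of a bound site. The 250 bases before the start are shown for the conjugation genes with a match, Atg3 (chr16:45158579-45158828, plus strand), Atg5 (chr10:44268089-44268338, plus strand) and Atg7 (chr6:114670846-114671095, plus strand, a start inside the longer model of the count table), because they pair a gene that rose, a gene that fell and a gene that was not called with the same letters. Capitals mark CACGTG.
Atg3: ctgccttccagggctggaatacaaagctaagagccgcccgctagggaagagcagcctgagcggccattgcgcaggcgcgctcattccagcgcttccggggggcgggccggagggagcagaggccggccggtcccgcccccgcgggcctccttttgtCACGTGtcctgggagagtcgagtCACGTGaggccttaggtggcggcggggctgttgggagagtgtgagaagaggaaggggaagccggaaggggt
Atg5: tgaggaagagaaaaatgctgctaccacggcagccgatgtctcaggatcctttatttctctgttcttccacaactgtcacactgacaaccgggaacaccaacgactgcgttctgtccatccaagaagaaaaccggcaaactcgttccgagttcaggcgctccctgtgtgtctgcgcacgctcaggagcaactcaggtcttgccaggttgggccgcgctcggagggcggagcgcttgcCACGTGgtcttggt
Atg7: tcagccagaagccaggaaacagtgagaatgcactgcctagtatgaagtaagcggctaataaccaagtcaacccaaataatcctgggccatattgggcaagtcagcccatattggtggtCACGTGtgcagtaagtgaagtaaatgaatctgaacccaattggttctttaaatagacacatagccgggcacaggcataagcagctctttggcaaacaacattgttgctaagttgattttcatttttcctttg

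The direction of the change followed gene length. Across the 39 genes, Spearman's rho between the log2 fold change and the length over exons was −0.75, and across all 9742 genes tested it was −0.48, in both cases over genes that share the same 12 libraries. All 7 autophagy genes that rose were at most 2500 bases long, and all 4 that were longer than 6000 bases (Rb1cc1, Atg2a, Atg2b and Wdfy3) fell. Of all genes tested, 49.4% of those up to 1500 bases were called higher and 4.78% lower, whereas of those over 6000 bases 3.83% were called higher and 62.1% lower. What the dependence on length reflects was not tested.

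**Figure D4:**
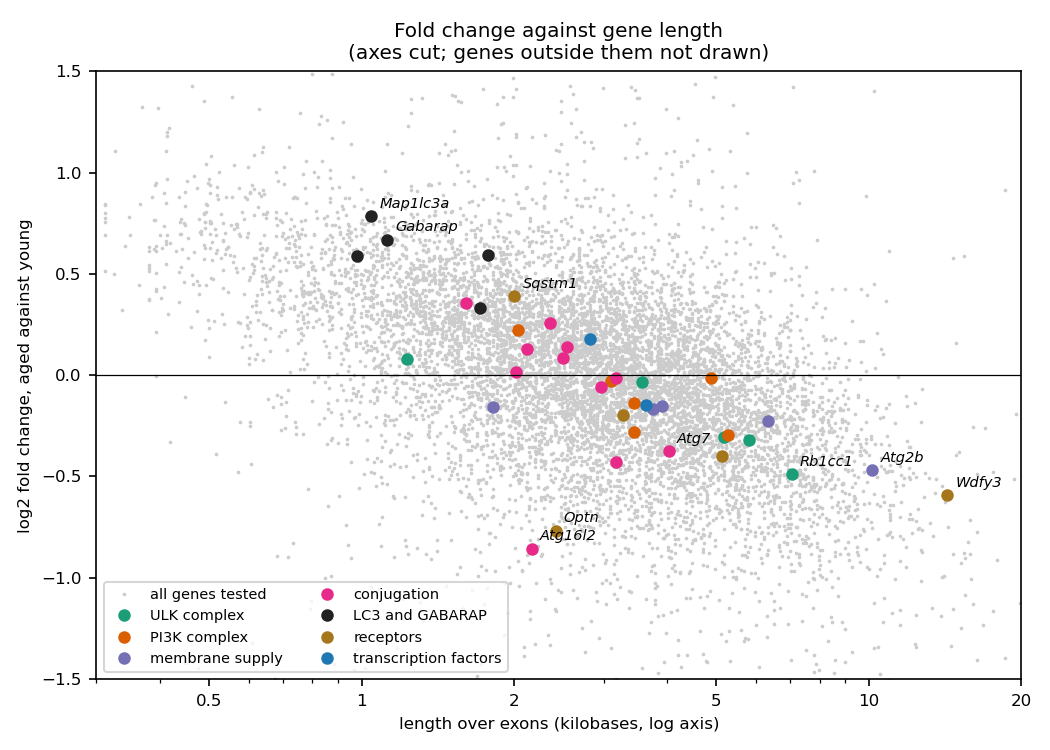
Log2 fold change of aged over young (vertical axis, edgeR) against gene length over exons in kilobases (horizontal log axis), with the 39 autophagy genes coloured by step in front of the genes tested, of which those outside the axes are not drawn. Short autophagy genes tend to lie above 0 and long ones below, with Map1lc3a at 0.78 and Wdfy3 at −0.59, while Optn (−0.77) and Atg16l2 (−0.86) are low next to the median of 0.13 over genes longer than 1500 and up to 2500 bases.

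An offset for each library from a smooth fit of its counts on gene length was therefore tried. With it, 3 autophagy genes (7.69%) were called higher and 7 (17.9%) lower by edgeR, against 17.8% and 15.6% of all genes. The offset brought Spearman's rho to −0.04 over all genes but left it at −0.39 over the 39 autophagy genes. Of the 21 calls, 9 held, namely Map1lc3a (0.48, adjusted p = 0.00176), Gabarap (0.40, adjusted p = 0.0215), Sqstm1 (0.29, adjusted p = 0.0461), Atg16l2 (−0.93, adjusted p = 7.64e-04), Optn (−0.80, adjusted p = 3.72e-04), Atg16l1 (−0.38, adjusted p = 0.00343), Atg7 (−0.27, adjusted p = 0.0162), Uvrag (−0.22, adjusted p = 0.0156) and Nbr1 (−0.20, adjusted p = 0.0234). Optn and Atg16l2, with 2413 and 2164 bases over exons, thus fell as much with the offset as without it.

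The other 12 calls were lost with the offset. All 3 genes called in the ULK complex were among them, with Rb1cc1 at −0.15 (adjusted p = 0.168), Ulk1 at −0.10 (adjusted p = 0.421) and Ulk2 at −0.08 (adjusted p = 0.457, edgeR). Atg2a, Atg2b and Wdfy3 went from below to just above 0, at 0.06, 0.03 and 0.06, and Gabarapl2 kept a value of 0.26 with an adjusted p of 0.0582 (edgeR). Becn1 (0.13), Atg5 (0.21), Map1lc3b (0.19), Ambra1 (−0.09) and Tax1bp1 (−0.15) kept their direction without passing the threshold, Atg5 and Tax1bp1 with most of their fold change and Ambra1 with little of it. Wipi1, an effector of PI3P, was the 1 gene that was called only with the offset (−0.28, adjusted p = 0.0234, edgeR). Of the 9 ratios, 4 kept their call under the same offset, Sqstm1 to Nbr1 (0.51, adjusted p = 0.0227), Optn to Tax1bp1 (−0.63, adjusted p = 0.0227), Atg16l1 to Atg16l2 (0.49, adjusted p = 0.0303) and Tfeb to Tfe3 (0.25, adjusted p = 0.0455).

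Genes around the core machinery were counted in 6 further lists, of which 69 genes were tested, 21 of them higher (30.4%, against 22.4% of all genes) and 14 lower (20.3%, against 23% of all genes) in aged mice by edgeR. With the length offset the counts were 19 higher (27.5%, against 17.8%) and 3 lower (4.35%, against 15.6%). The single lists below hold 5 to 19 tested genes each, and their counts are to be read against the same shares of all genes. In mTORC1 and its lysosomal platform, which holds the ULK complex inactive in fed cells, 6 of 19 genes were higher and 3 lower. Among the genes called, Lamtor4, a Ragulator subunit, rose the most, by 0.58 (SE 0.11, adjusted p = 8.60e-04, edgeR), Tsc1, a brake on the kinase, fell the most, by 0.66 (SE 0.143, adjusted p = 0.00196, edgeR), and the kinase gene Mtor fell by 0.38 (SE 0.0609, adjusted p = 2.77e-04, edgeR). With the length offset Lamtor4 stayed called at 0.22 (adjusted p = 0.0366, edgeR), Mtor was at 0.04 and Tsc1 at −0.29, neither called, and 0 genes of this list were called lower.

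AMPK activates autophagy when energy is low, and of 6 tested genes, its subunits and its upstream kinase Stk11, 3 were lower and 0 higher by edgeR and by DESeq2, with 0 higher also at an unadjusted p of 0.05. Prkab2, a regulatory subunit, fell by 1.44 (SE 0.296, adjusted p = 0.00144, edgeR), from 6.12 ± 3.15 CPM (SD, n = 6) in young to 2.33 ± 0.594 CPM in aged mice, and kept its call with the length offset (−1.29, adjusted p = 0.00285, edgeR). With that offset 3 genes of this list were called lower and 1 higher.

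Among 9 further genes of the phagophore membrane, 3 were higher and 1 lower. Rab1b, a GTPase of transport from the endoplasmic reticulum, rose by 0.53 (SE 0.0964, adjusted p = 6.14e-04, edgeR) and Pik3c2a, a class II lipid kinase, fell by 0.22 (SE 0.0689, adjusted p = 0.0184, edgeR). With the length offset Rab1b stayed called (0.41, adjusted p = 0.00451) and Pik3c2a turned to 0.17 without a call (adjusted p = 0.158, edgeR). In fusion with lysosomes, 6 of 14 genes were higher and 5 lower. Vamp8, a SNARE on the lysosome, rose by 0.60 (SE 0.0979, adjusted p = 3.13e-04, edgeR) and Stx17, its partner on the autophagosome, fell by 0.57 (SE 0.15, adjusted p = 0.00662, edgeR), and with the length offset the first stayed called (0.20, adjusted p = 0.0332) and the second did not (−0.31, adjusted p = 0.0786).

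Of 16 other receptors and regulators of selective autophagy, 6 were higher and 2 lower. The mitophagy receptor gene Bnip3 rose by 0.65 (SE 0.194, adjusted p = 0.0139, edgeR) and Fkbp8, another receptor on mitochondria, by 0.37 (SE 0.0683, adjusted p = 7.72e-04, edgeR), and both were also called with the length offset. Ccpg1, a receptor for the endoplasmic reticulum, fell by 0.29 (SE 0.0779, adjusted p = 0.00787, edgeR) and was not called with that offset (−0.21, adjusted p = 0.101).

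Markers of cell types moved with age as well, and their part in these results was not tested. All 6 genes listed for classical monocytes were detected in every library, at a summed level of 3420 to 4460 CPM in aged and 3990 to 4180 CPM in young mice. Most of that sum was Itgam, a gene of the sort that neutrophils also express, which was lower in aged mice, whereas Ly6c2 and Cd14 were higher, and Ccr2 and F13a1 were as low as 5.03 and 2.57 CPM in an aged mouse. Neutrophil genes were abundant despite the gate, at 120000 to 143000 CPM in aged and 76500 to 120000 CPM in young mice, with 5 of 8 called higher. All 7 resident macrophage markers were called higher, at 51.3 to 909 CPM against 41 to 57.6 CPM, with the highest sum in aged mouse 1 and the next at 277 CPM. Promyelocyte genes summed to 9.06 to 16.5 CPM against 3.13 to 8.46 CPM, and Clec9a, the only one of 5 dendritic cell genes that was called, had a mean of 0.83 CPM against 4.51 CPM (the 5 summed to 0.642 to 2.33 CPM against 3.01 to 7.23 CPM). B, T and NK and erythroid markers stayed at or below 12.2 CPM in each library, and Cd8a and Hba-a1 were at 0 counts in all 12, while plasma cell genes were at 133 to 233 CPM against 108 to 160 CPM, mostly from Xbp1, a widely expressed gene and the only one of that list that was called.

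Young mice 5 and 6 had the lowest neutrophil sums (76500 and 77100 CPM) and the highest sums of proliferation genes (1170 and 1130 CPM, against 282 to 673 CPM in aged mice). They also had the lowest Gabarap, Sqstm1 and Map1lc3a and the highest Optn, Atg16l1 and Atg16l2 of the young mice. Without these 2 mice 18 of the 21 autophagy calls remained, 4 higher and 14 lower, and those lost were Becn1, Atg5 and Map1lc3b. Without aged mouse 1, the mouse with the highest macrophage sum, 19 calls remained, and those lost were Atg5 and Tax1bp1.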

How the data were processed

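RNA from sorted bone marrow M-MDSCs of 12 mice (6 per age) was sequenced in pairs of reads from stranded libraries. The authors deposited raw counts of fragments per gene, made with featureCounts 2.0.0 over the exons of each gene of an mm10 annotation, for fragments with both ends on 1 chromosome, on the strand of the gene and mapped with a quality no lower than 60, which takes fragments from genes with near-identical copies. The aligner is not given in the sources used here. No member shares exons on its strand with another gene. Ages were taken from the labels, and 0 columns of per-sample values were left unused. Sample numbers of the alignment files are all lower for young than for aged mice, so that a batch of preparation or sequencing and age cannot be told apart.

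Counts were tested as deposited with edgeR 4.0.16 (R 4.3.3), with filterByExpr, TMM factors, the quasi-likelihood test and Benjamini-Hochberg adjustment over all 9742 genes tested, at a threshold of 0.05. CPM are counts scaled to the TMM-normalised total of a library and RPKM are these per kilobase over exons. Ratios of 2 genes used a prior count of 0.5 and an exact two-sided permutation test over 12 mice, adjusted over 21 pairs. The length offset was a loess fit (span 0.5) of each library's deviation in log2 CPM on log2 length. DESeq2 1.42.0, limma-voom (limma 3.58.1), other scalings and filters, thinning, a block and leaving out mice were alternatives.

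The members, pairs and lists were chosen with earlier results of these data known. Values in each age were given for called members without overlap and for Map1lc3b, Gabarap, Sqstm1, Becn1 and Ulk1. The other called members were given by fold change, and each further list by its top riser, its top faller and its smallest p. Other names were chosen after their values were seen. Promoter sequences are from RefSeq GRCm38.p6. Certain genes are not reported here.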

Additional observations from a re-analysis of the deposited data

Results flagged for a closer look

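Of 120 groups of 6 mice checked for a mouse that stands apart, 6 held one by Dixon's criterion, which chance alone meets in about 1 of 20 groups, so 6 is the number chance gives. The criterion is the gap to the nearest mouse over the range of the group, and it was met above 0.625. Among levels, Atg4b was lowest in aged mouse 7, at 38.0 CPM against 39.5 in the next (ratio 0.654), and Atg4c was highest in young mouse 1, at 37.5 CPM against 28.3 (ratio 0.628). Among log2 ratios within a mouse, Map1lc3a to Map1lc3b was −2.58 in young mouse 1 against −2.86 in the next (0.743). Gabarapl2 to Gabarap was −3.43 in aged mouse 2 against −3.51 (0.67), and Pik3r4 to Pik3c3 was −0.058 in young mouse 2 against −0.32 (0.678). Sqstm1 to Nbr1 was lowest in aged mouse 7, at 0.896 against 1.20 (0.694), and that value was still above the highest young mouse, at 0.644.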

How the results depend on the processing

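Map1lc3a, Optn, Atg16l1 and Atg16l2 were called in the same direction in all 12 fits that left out a mouse and under all 12 other alternatives of the test. All 21 calls were also made by DESeq2 and limma-voom, and leaving out 1 mouse ended only those of Becn1, Atg5, Map1lc3b and Tax1bp1, among the 21. Depth limits Atg10, Atg14, Gabarapl1 and the Atg4a row, with fewest counts of 5, 18, 14 and 15 in a library.

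The 7 genes called higher became 4 to 9 without 1 mouse (4 without aged mouse 4, 5 or 6 or young mouse 1, and 9 without aged mouse 7), 4 without TMM factors, 3 with the length offset and 4 without young mice 5 and 6, an alternative added after seeing the data. The 14 called lower became 7 with the length offset. The median log2 fold change of the members moved from −0.06 to −0.14 without TMM factors, where that of all genes moved to −0.081 and 1682 genes were called higher and 2762 lower, to 0.0026 with the length offset and to −0.13 without young mice 5 and 6. Of the 9 ratios called, 4 held with the length offset, those of Sqstm1 to Nbr1, Optn to Tax1bp1, Atg16l1 to Atg16l2 and Tfeb to Tfe3, and 4 without young mice 5 and 6, those without overlap between the ages. The cause was not tested.

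Replicate numbers 1, 2, 5 and 6 occur in both ages, and nothing in the labels says that they pair mice. Correlations of same-numbered mice, each taken relative to the mean of its age, were −0.0942, −0.0352, −0.229 and −0.237. They were not compared with those of differently numbered mice, so they cannot decide whether the numbers pair mice. With the number as a block in these 8 mice, 5 members were called higher and 11 lower, and with the length offset as well 1 and 4 (median 0.0047). In the same fits 1586 and 1860 of all 9821 genes tested were called higher and lower, and 719 and 918 with the length offset. Without the block the same 8 mice gave 6 and 16. Of the ratios, 0 were called under the block, where the smallest p that 4 numbers allow is 0.125.

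Some signs changed. With the length offset, Atg2a was at 0.059, Atg2b at 0.031, Wdfy3 at 0.061, Atg13 at 0.039, Atg101 at −0.17, Pik3c3 at 0.0026, Pik3r4 at 0.16, Atg3 at −0.080 and Atg4c at 0.029, and the ratio of Ulk1 to Ulk2 was at −0.032 and that of Atg101 to Atg13 at −0.21. With the block and the length offset, Ulk2 was at 0.0015, Atg13 at 0.052, Atg101 at −0.19, Pik3c3 at 0.023, Pik3r4 at 0.17, Atg2a at 0.12, Atg2b at 0.00088, Atg3 at −0.069, Atg4b at 0.033, Atg4c at 0.0047 and Wdfy3 at 0.059. With the block alone, the ratio of Ulk1 to Ulk2 was at −0.053, Atg4c to Atg4b at −0.063, Atg14 to Uvrag at −0.050 and Pik3r4 to Pik3c3 at −0.029. Upper quartile factors gave 0.0013 for Atg13, 0.0067 for Pik3c3, 0.023 for Pik3r4 and 0.020 for Atg4c, limma-voom gave 0.0058 for Pik3r4, and library totals without TMM factors gave −0.0029 for Atg101 and −0.073 for Atg3. Thinning gave 0.00093 for Atg4c, and ratios of 0.025 for Gabarapl2 to Gabarap and −0.11 for Atg14 to Uvrag. Without young mice 5 and 6, Atg101 was at −0.011, Atg3 at −0.094, Atg4a at −0.069 and Atg12 at −0.037, and the ratios were 0.038 for Wipi1 to Wipi2, 0.035 for Gabarapl1 to Gabarap, 0.035 for Gabarapl2 to Gabarap and −0.021 for Pik3r4 to Pik3c3. Leaving out 1 mouse gave −0.088 to 0.039 for Atg13, −0.073 to 0.014 for Pik3c3, −0.074 to 0.034 for Pik3r4, −0.045 to 0.060 for Atg3, −0.0041 to 0.25 for Atg4a and −0.065 to 0.090 for Atg4c, and for ratios −0.029 to 0.081 for Ulk1 to Ulk2, −0.040 to 0.11 for Atg4c to Atg4b, −0.077 to 0.038 for Wipi1 to Wipi2 and −0.040 to 0.076 for Pik3r4 to Pik3c3.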
